A study of Mus musculus with 25 samples.

Results

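Calprotectin is the protein pair that neutrophils store and release in inflamed tissue. Its genes S100a8 and S100a9 were followed here in mouse liver together with 7 other genes of neutrophils, which are Ltf, Mmp8, Mpo, Elane, Camp, Ngp and Cxcr2. These 9 genes were taken by name from the 17016 gene symbols that the arrays could be matched to, each through its probe of highest mean signal, and they were followed through all 8 groups of samples. RNA of whole liver homogenates of untreated mice was hybridised to 25 single-colour arrays, and the study asked how loss of Mcl-1, a protein that protects cells from apoptosis, alters the liver with age and in tumors. Knockout mice lack Mcl-1 in hepatocytes only, hemizygous mice carry 1 deleted copy, and wild-type littermates carry none. The promoter that drives the deletion is not given in the sources used here.

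The groups were knockout livers at 2 months (3 mice), hemizygous livers at 2 months (3) and wild-type livers at 2 months (2). From knockout mice that bore liver tumors came tumors and the corresponding non-tumor tissue, from the same 3 mice at 8 months and the same 4 mice at 12 months. Wild-type livers at 12 months came from 3 mice. No hemizygous or wild-type mouse was measured at 8 months, so that age has no control.

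Neutrophils are short-lived white blood cells that ripen in the bone marrow and fill their granules in a fixed order. Azurophil granules come first and hold myeloperoxidase (Mpo) and neutrophil elastase (Elane). Specific and gelatinase granules come later and hold lactoferrin (Ltf), cathelicidin (Camp), neutrophilic granule protein (Ngp) and collagenase 2 (Mmp8). S100a8 and S100a9 proteins fill the cytosol, bind calcium, zinc and manganese, and after release act on receptors such as Tlr4. Cxcr2 is the chemokine receptor by which neutrophils leave the marrow and enter tissue. Transcripts of granule proteins are made mostly by marrow precursors and are scarce in the mature cell, whereas S100a8 and S100a9 transcripts remain abundant in it. Monocytes also carry calprotectin transcripts. In whole tissue, fewer cells of a type and less RNA per cell cannot be told apart.

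S100a8 and S100a9 lie side by side on chromosome 3, S100a8 at chr3:90669071-90670034 and S100a9 at chr3:90692630-90695721 in GRCm38.p6. Since their levels moved together over the arrays described here, the 250 bases in front of each gene's start are shown, as given by RefSeq. Capitals mark 3 motifs searched on both strands, which are the TATA box TATAAA, the core GAGGAA bound by the myeloid factor PU.1 (read as TTCCTC where it lies on the opposite strand) and the C/EBP half-site pair TTGCNNAA.
S100a8, chr3:90668821-90669070, plus strand: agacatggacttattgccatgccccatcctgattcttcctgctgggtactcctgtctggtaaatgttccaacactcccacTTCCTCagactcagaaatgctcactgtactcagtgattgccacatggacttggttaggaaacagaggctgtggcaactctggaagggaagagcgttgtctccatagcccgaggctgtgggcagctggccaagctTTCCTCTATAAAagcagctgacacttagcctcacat
S100a9, chr3:90695722-90695971, minus strand: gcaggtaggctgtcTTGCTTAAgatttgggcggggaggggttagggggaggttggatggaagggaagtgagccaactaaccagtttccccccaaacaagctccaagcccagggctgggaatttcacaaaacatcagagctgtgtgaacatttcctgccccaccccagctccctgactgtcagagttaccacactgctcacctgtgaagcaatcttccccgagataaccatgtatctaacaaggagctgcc
The S100a8 window holds TATAAA once, directly behind 1 of its 2 copies of GAGGAA and with no overlap. The S100a9 window holds TTGCNNAA once and neither of the other motifs. Over the 32851 promoter windows of this length, 12.4% hold TATAAA, 23.3% hold GAGGAA and 9.56% hold TTGCNNAA, so that each match alone is common. Among the 9 genes, TATAAA was found in 1, GAGGAA in 6 and TTGCNNAA in 4. These matches describe letters and not occupied sites.

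The level of a gene is log2 of its processed signal after subtraction of the 75th percentile found on the same array, so that 0 stands for that percentile. Between 60.3% and 84.94% of the probes of an array passed the scanner's test for a signal well above background. Animal 641, a 12-month wild type, had the highest share and the next array had 76.35%. Alb, the albumin gene of hepatocytes, lay between 8.88 and 10.32 on every array. Mcl1 lay between 1.38 and 2.97 on the 17 knockout arrays and between 3.15 and 4.45 on the 8 hemizygous and wild-type arrays. Xist, a noncoding RNA that female cells make from their silenced X chromosome, was well above background on 1 of 3 knockout, 3 of 3 hemizygous and 1 of 2 wild-type arrays at 2 months. At 12 months it was so in 1 of the 3 wild-type livers, and in the tumor and the non-tumor tissue of 2 of the 4 knockout mice. The arrays lay on 8 slides and were scanned on 2 days, the second of which held wild-type animals 552 and 1110 of the 12-month group and 1 tumor.

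S100a9 was well above background on all 25 arrays and S100a8 on 19. Of the others, Mpo was so on 24 arrays, Ltf on 23, Mmp8 and Cxcr2 on 15 each, Ngp on 13, Camp on 12 and Elane on 1. Thus 8 of the 9 genes entered every test and Elane entered none. None of the 9 probes was saturated.

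At 2 months both calprotectin genes were far higher in knockout livers than in either kind of littermate. S100a9 had levels of 0.48, 2.31 and 0.82 in the knockout livers of animals 137, 64 and 69. It had -2.84, -3.18 and -2.97 in hemizygous livers and -3.20 and -2.24 in wild-type livers. The lowest knockout liver thus lay well above the highest control liver. Means were 1.20 ± 0.98 in knockout, -2.999 ± 0.17 in hemizygous (SD, n = 3 each) and -2.72 ± 0.68 in wild-type livers (SD, n = 2). S100a9 rose against hemizygous livers by 4.20 on the log2 scale (SE 0.60), which is 18.4-fold (limma, adjusted p = 0.0275). Against wild-type livers the difference was 3.92 (SE 0.67), which is 15.2-fold, with an adjusted p of 0.0572.

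S100a8, the partner chain, had levels of -2.63, -1.11 and -2.30 in the knockout livers of the same 3 animals, all well above background. It had -6.95, -7.63 and -6.35 in hemizygous livers and -6.45 and -6.95 in wild-type livers, and on none of these 5 arrays was it well above background. Its knockout mean was -2.01 ± 0.80, against -6.98 ± 0.64 in hemizygous (SD, n = 3 each) and -6.70 ± 0.35 in wild-type livers (SD, n = 2). S100a8 rose against hemizygous livers by 4.97 (SE 0.72, adjusted p = 0.0275). Because the control signals were only bounded by background, a floor was used, which gives at least 15.8-fold. It sets the knockout mean against the higher of each control array's own signal and its lowest signal well above background. Against wild-type livers the difference was 4.69 (SE 0.80, adjusted p = 0.0572), which is at least 11.3-fold. This floor is no strict detection limit, since signals above it can fail the background test. Mpo in wild-type animal 34 failed it at -4.82, where the floor was -5.68. The folds stated as at least a value for S100a8, Cxcr2, Pglyrp1 and Retnlg hold only under this floor.

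**Figure D1:**
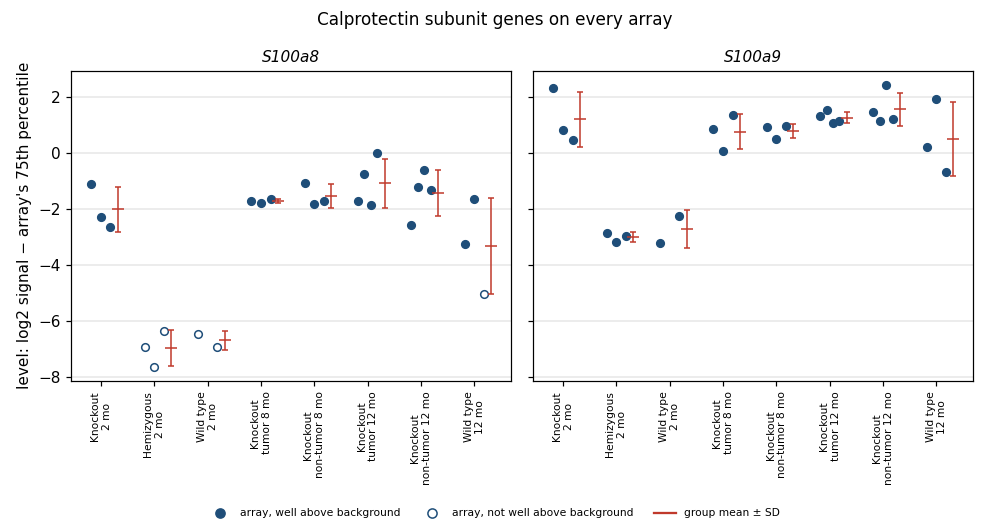
Levels of S100a8 and S100a9 (log2 signal relative to the 75th percentile of the array, vertical axis) in each sample of the 8 groups, 1 point per array with the group mean and SD; open points were not well above background. The 3 young knockout livers lie above all 5 young hemizygous and wild-type livers in both panels, and the 12-month wild-type livers are widely spread.

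Against hemizygous livers, 2 of the 8 tested genes passed the threshold with a higher level, compared with 0.0333% of the 27019 features tested. Against wild-type livers none of the 8 passed, 3 had an unadjusted p under 0.05 with a higher level (background 4.30%), and 0.0222% of the 27016 features passed in either direction. The wild-type comparison rests on 2 control mice. Hemizygous and wild-type livers differed by -0.28 for S100a8 (SE 0.80) and by -0.28 for S100a9 (SE 0.67), both with an adjusted p of 1. In that comparison no feature passed limma's test, and 0.366% were higher at an unadjusted p under 0.05.

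The call against hemizygous livers depended on which arrays were kept. Without any 1 of the 3 hemizygous arrays, or without knockout animal 64 or 69, neither gene passed, with adjusted p up to 0.206, while the differences stayed between 4.51 and 5.28 for S100a8 and between 3.65 and 4.56 for S100a9. On the 1 slide that held both groups, knockout animal 137 exceeded the mean of hemizygous animals 27 and 28 by 4.66 for S100a8 and 3.49 for S100a9. With the slide as a fixed block those values had adjusted p of 0.112 and 0.199. Xist was well above background in all 3 hemizygous livers, but among the 3 knockout livers only in that of animal 69. That animal had S100a8 at -2.30 and S100a9 at 0.82. The part of this imbalance in the calprotectin differences was not tested. After normexp background correction and quantile normalization the S100a8 difference shrank to 1.11 (adjusted p = 0.125), and in the authors' deposited log2 values, which carry no background subtraction, it was 2.25 (adjusted p = 0.0458).

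In older knockout mice the calprotectin genes had levels like those of the young knockout livers. In non-tumor tissue at 8 months S100a9 had 0.96, 0.49 and 0.92, and at 12 months 1.22, 1.46, 1.13 and 2.44. S100a8 had -1.73, -1.82 and -1.06 at 8 months and -1.32, -2.57, -1.22 and -0.61 at 12 months. These ranges overlap those of the young knockout livers for both genes. Between 8 and 2 months the differences were 0.48 for S100a8 (SE 0.72) and -0.41 for S100a9 (SE 0.60), both with an adjusted p of 0.78. Between 12 and 2 months they were 0.59 (adjusted p = 0.68) and 0.36 (adjusted p = 0.77). Between 12 and 8 months they were 0.11 (adjusted p = 0.996) and 0.77 (adjusted p = 0.928). No feature passed between 8 months and either other age in knockout non-tumor tissue by limma, whereas 8.22% and 1.03% were higher at an unadjusted p under 0.05 at 8 against 2 and at 12 against 8 months, and 0.00740% passed at 12 against 2 months.

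In wild-type livers both genes were higher at 12 than at 2 months in every array, and the 3 old livers differed widely. S100a9 had 0.23, 1.93 and -0.66 in animals 552, 641 and 1110 at 12 months, against -3.20 and -2.24 at 2 months. S100a8 had -3.27, -1.63 and -5.05 at 12 months, the last not well above background, against -6.45 and -6.95 at 2 months. The age groups do not overlap for either gene, nor for Cxcr2, which makes 3 of 8 genes compared with 14.8% of all features. The differences were 3.22 for S100a9 (SE 0.67, adjusted p = 0.123) and 3.38 for S100a8 (SE 0.80, adjusted p = 0.161), and 0.0407% of the 27017 features passed. The fold of S100a8 has no firm lower bound, since animal 1110 and both young livers were not well above background. Without animal 641, the array with most probes above background, the differences were 2.50 (adjusted p = 0.0209) and 2.54 (adjusted p = 0.0457), and both then passed, as did 6.56% of the 25733 features tested there. With scan day as a block they were 4.66 (adjusted p = 0.0283) and 5.07 (adjusted p = 0.0424), with 0.285% of the features passing. That block leaves 641 as the single 12-month wild-type liver compared, which is assumed to vary like the other groups.

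At 12 months knockout non-tumor tissue and wild-type liver overlapped for both genes. The S100a9 mean was 1.56 ± 0.60 in knockout non-tumor tissue (SD, n = 4) and 0.50 ± 1.32 in wild-type liver (SD, n = 3), a difference of 1.06 (SE 0.56, adjusted p = 0.352). The S100a8 mean was -1.43 ± 0.82 in knockout non-tumor tissue and -3.32 ± 1.71 in wild-type liver, a difference of 1.89 (SE 0.67, adjusted p = 0.176). In this comparison 0.0185% of the 27024 features passed and none of the 8 genes did. Animals 552 and 1110 lay below all 4 knockout tissues for both genes, and 641 lay among them. Without 641 the differences were 2.73 for S100a8 (adjusted p = 0.0926) and 1.78 for S100a9 (adjusted p = 0.12). With scan day as a block, and so with 641 alone as the wild-type liver, they were 0.20 (adjusted p = 0.883) and -0.37 (adjusted p = 0.724), and without 1110 they were 1.02 and 0.48. On the slide that 641 shared with young knockout animals 64 and 69, its S100a9 level of 1.93 lay between their 2.31 and 0.82.

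The knockout minus wild-type difference at 12 months minus that at 2 months was -2.80 for S100a8 (SE 1.04, adjusted p = 0.477) and -2.86 for S100a9 (SE 0.87, adjusted p = 0.459). Neither passed, nor did any of the 27016 features by limma, of which 4.73% were above 0 at an unadjusted p under 0.05. Scan day as a block gave -4.48 (adjusted p = 0.0526) and -4.30 (adjusted p = 0.044), again with 641 as the single old control and with 0.703% of the features passing. Ordered by mean, S100a9 ran from knockout non-tumor tissue at 12 months (1.56) through 12-month tumor (1.27), 2-month knockout (1.20), 8-month non-tumor (0.79), 8-month tumor (0.77) and 12-month wild type (0.50) down to 2-month wild type (-2.72) and hemizygous (-2.999). Neighbours in that order overlapped in their single values, except 12-month and 2-month wild type.

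The 6 granule and receptor genes other than Elane gave a weaker and less even picture in young livers. All 8 tested genes had a difference above 0 in knockout against wild-type livers, with a median of 2.17, whereas the median over all 27016 features was -0.04. Against hemizygous livers all 8 were above 0 as well, with a median of 1.61 against 0.04 over 27019 features. Knockout livers lay above both wild-type livers without overlap for 6 of 8 genes, which are S100a8, S100a9, Camp, Ngp, Mmp8 and Cxcr2, where 16.8% of features did so. They lay above all 3 hemizygous livers for 1 further gene besides calprotectin, Mmp8, which makes 3 of 8, where 15.2% of features did. For Camp, Ngp and Mmp8 only 1 of the 3 knockout livers and no wild-type liver was well above background. Their order is thus mostly that of background signals. Knockout animal 64 was the highest of the 3 young knockout livers for all 9 genes.

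Mpo, the azurophil peroxidase that makes hypochlorous acid (chr11:87793784-87804412), had -3.63, -1.11 and -2.81 in knockout livers. It had -3.93, -5.37 and -2.44 in hemizygous and -2.74 and -4.82 in wild-type livers. The groups overlapped, and the differences were 1.40 against hemizygous (SE 0.99, adjusted p = 0.777) and 1.26 against wild-type livers (SE 1.11, adjusted p = 0.806). Elane, the serine protease of the same granules (chr10:79886312-79888216), was not well above background in any young liver. Its single array above background in the study was that of 12-month wild-type animal 641, at -5.17, where 552 had -7.86 and 1110 had -6.84.

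Ltf, the iron-binding lactoferrin (chr9:111019292-111042766), had -4.41, -1.59 and -4.34 in knockout livers. It had -5.23, -5.55 and -1.63 in hemizygous and -1.63 and -5.83 in wild-type livers. On this probe, the brighter of 2, 1 liver of each group was thus high. The differences were 0.69 against hemizygous (SE 1.13, adjusted p = 0.936) and 0.28 against wild-type livers (SE 1.27, adjusted p = 0.969). Its 2 probes disagreed, since the dimmer one had -3.996 and -3.03 in wild-type animals 31 and 34, the reverse of their order on the brighter probe. In hemizygous animals 27, 28 and 30 the dimmer probe had -5.43, -4.69 and -4.82, so that 30 did not stand out there. With the mean of both probes the difference from wild-type livers was -0.14.

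Camp, the precursor of the antimicrobial peptide CRAMP (chr9:109847377-109849456), had -6.46, -3.12 and -5.38 in knockout livers, of which 1 array was well above background. It had -8.04, -6.46 and -5.94 in hemizygous and -6.91 and -7.45 in wild-type livers, none of them well above background. Its difference was 2.19 against wild-type livers (SE 1.49, adjusted p = 0.726) and 1.83 against hemizygous livers (SE 1.33, adjusted p = 0.788). No lower bound of the fold is given for Camp, since most of its knockout signals were near background too. Ngp, a cystatin-like protein of specific granules (chr9:110419808-110423012), had -5.93, -3.27 and -6.27 in knockout livers. It had -3.17, -6.95 and -5.55 in hemizygous and -7.09 and -7.53 in wild-type livers, so that hemizygous animal 27 was the highest of the 8. Its difference was 2.15 against wild-type (SE 1.47, adjusted p = 0.726) and 0.07 against hemizygous livers (SE 1.31, adjusted p = 0.997).

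Mmp8, the collagenase of specific granules (chr9:7558429-7568486), had -5.65, -4.11 and -5.24 in knockout livers. It had -7.56, -7.95 and -5.77 in hemizygous and -6.70 and -6.45 in wild-type livers, none well above background. Of the knockout livers only that of animal 64 was well above background, so their place above all 5 controls orders mostly background signals. The lowest knockout level, -5.65, lay next to the highest control level, -5.77 in hemizygous animal 30. The differences were 2.09 against hemizygous (SE 0.92, adjusted p = 0.562) and 1.58 against wild-type livers (SE 1.03, adjusted p = 0.71). Cxcr2, the chemokine receptor (chr1:74153994-74161246), had -5.22, -4.40 and -4.87 in knockout livers, all well above background. It had -6.57, -6.90 and -5.00 in hemizygous and -6.80 and -7.22 in wild-type livers. The differences were 2.19 against wild-type (SE 0.83, adjusted p = 0.474, at least 1.60-fold) and 1.33 against hemizygous livers (SE 0.75, adjusted p = 0.685). The second Cxcr2 probe was not well above background in any young liver.

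**Figure D2:**
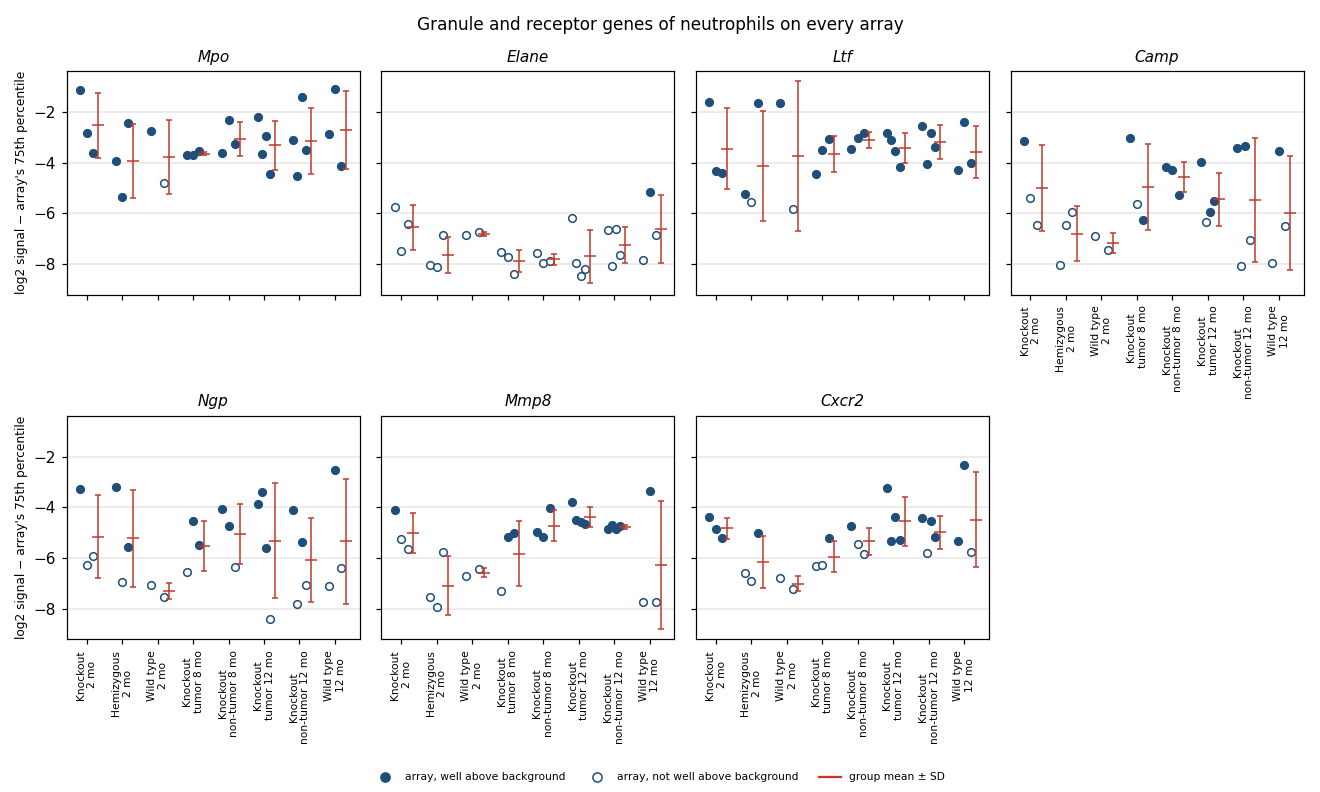
Levels of Mpo, Elane, Ltf, Camp, Ngp, Mmp8 and Cxcr2 (log2 signal relative to the 75th percentile of the array) in each sample of the 8 groups, with group means and SD; open points were not well above background. Spread within groups is wide for Ltf, Camp and Ngp, and 12-month wild-type animal 641 is far above the other old wild-type livers for Camp, Ngp, Mmp8 and Cxcr2.

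Among the 12-month wild-type livers 1 animal stood apart for several of these genes. Of the 12-month wild-type livers, animals 552, 641 and 1110 had -7.74, -3.34 and -7.75 for Mmp8. For Cxcr2 they had -5.34, -2.33 and -5.77, for Ngp -7.12, -2.50 and -6.41, and for Camp -7.96, -3.53 and -6.52. Animal 641 was the highest of the 25 arrays for Mmp8, Ngp, Cxcr2, Mpo and Elane. Its share of probes above background was also the highest, and the part of that in these levels was not tested. Its array lay on another slide and was scanned on another day than those of 552 and 1110. The animal thus cannot be told apart from slide or scan day. Young knockout animals 64 and 69 shared its slide. Mmp8 had -4.73, -4.84, -4.68 and -4.84 in the 12-month knockout non-tumor tissues, all well above background, and the difference from wild-type liver was 1.50 (adjusted p = 0.399). Without 641 that difference was 2.97 (adjusted p = 0.0537), and with scan day as a block it was -1.43. The other 5 genes differed by -0.73 to 0.53 between knockout non-tumor tissue and wild-type liver, with adjusted p of 0.77 to 0.90.

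Over the 25 arrays, the level of Cxcr2 had a Pearson r of 0.75 with the share of probes well above background, and 0.86 after group means were removed. For Mmp8 these values were 0.56 and 0.79, for S100a9 0.27 and 0.70, and for S100a8 0.19 and 0.43. They describe the arrays and are given with no test.

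**Figure D3:**
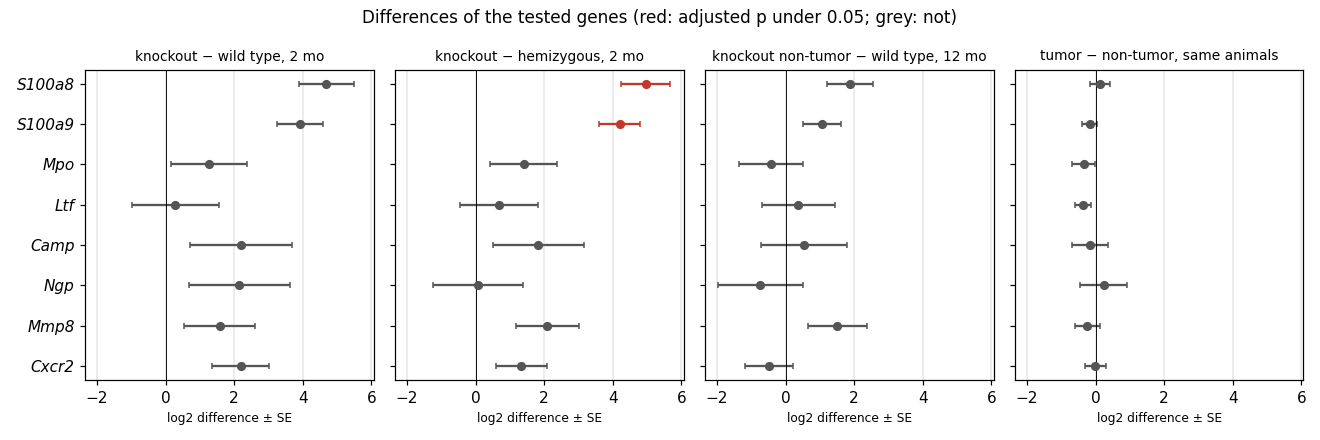
Log2 differences with SE (horizontal axis) of the 8 tested genes in 4 comparisons, with red marking an adjusted p under 0.05. S100a8 and S100a9 pass in knockout against hemizygous livers at 2 months, and in tumor against non-tumor tissue of the same animals every difference lies between -0.36 and 0.23.

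Tumors and the surrounding liver of the same 7 knockout mice were close in calprotectin. S100a8 in tumor and non-tumor tissue had -1.64 and -1.73 in animal 1347, -1.80 and -1.82 in 1287, and -1.72 and -1.06 in 934, the 3 mice of 8 months. At 12 months it had 0.0047 and -1.32 in 1109, -1.72 and -2.57 in 638, -0.74 and -1.22 in 702, and -1.87 and -0.61 in 793. The tumor was higher in 5 of 7 animals, the pair differences ran from -1.26 to 1.32, and their mean was 0.12 (SE 0.30, adjusted p = 0.999). S100a9 in tumor and non-tumor tissue had 1.35 and 0.96 in 1347, 0.09 and 0.49 in 1287, and 0.88 and 0.92 in 934. At 12 months it had 1.14 and 1.22 in 1109, 1.34 and 1.46 in 638, 1.53 and 1.13 in 702, and 1.08 and 2.44 in 793. The tumor was higher in 2 of 7 animals, the pair differences ran from -1.36 to 0.40, and their mean was -0.17 (SE 0.22, adjusted p = 0.999).

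The other genes gave no consistent sign between the tissues. Ltf was lower in the tumor in 6 of 7 animals, with 702 the exception, and its mean difference was -0.36 (SE 0.23). Mpo differed by -0.35 (SE 0.33; higher in 2 of 7), Camp by -0.16 (SE 0.53; 3 of 7), Ngp by 0.23 (SE 0.69; 4 of 7), Mmp8 by -0.24 (SE 0.36; 4 of 7) and Cxcr2 by -0.01 (SE 0.31; 4 of 7). All adjusted p were 0.999. No feature of 24581 passed limma's test in this comparison, and 2.39% were higher in tumors at an unadjusted p under 0.05, none of the 8 genes among them. The test kept the animal as a block. Of the 7 pairs 6 shared a slide, and over these the mean difference was 0.13 for S100a8 and -0.27 for S100a9.

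The tumor minus non-tumor difference was compared between ages within the same model. Mmp8 was the gene with the lowest p of the 8, at 1.52 for 12 minus 8 months (SE 0.56, adjusted p = 0.761). The value was 0.53 for S100a8 and -0.27 for S100a9 (adjusted p = 1 for S100a9). No feature passed by limma, and 5.61% were above 0 at an unadjusted p under 0.05. Tumors at 12 months against tumors at 8 months differed by 0.64 for S100a8 and 0.50 for S100a9 (adjusted p = 0.998 each), where no feature passed and 1.51% were higher at an unadjusted p under 0.05.

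**Figure D4:**
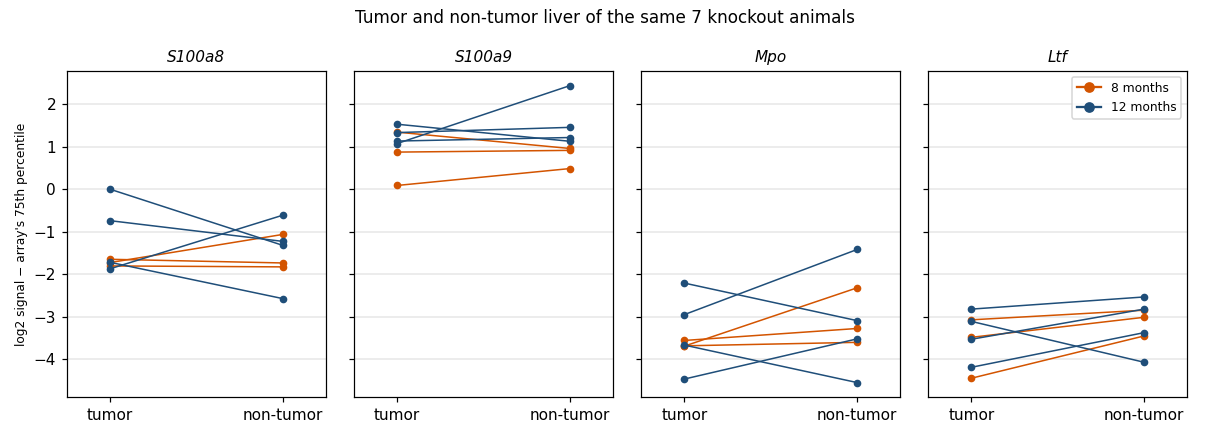
Levels of S100a8, S100a9, Mpo and Ltf (log2 signal relative to the 75th percentile of the array, vertical axis) in tumor (left) and non-tumor tissue (right) of the same 7 knockout animals, with a line for each animal. Lines cross in both directions for S100a8, S100a9 and Mpo, and 6 of the 7 Ltf lines are lower on the tumor side.

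Tumors at 12 months against 12-month wild-type liver differed by 2.24 for S100a8 (SE 0.67, adjusted p = 0.0909), with tumor levels between -1.87 and 0.0047 and wild-type levels between -5.05 and -1.63. S100a9 differed by 0.77 (adjusted p = 0.504), and 0.0250% of the 27951 features passed. Without animal 641, S100a8 and Mmp8 passed, with 3.08 and 3.38 (adjusted p = 0.0479 each), as did 0.635% of the 26607 features tested there. The comparison shares its wild-type livers with that of non-tumor tissue.

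Other neutrophil genes were counted by role from lists of known genes, and no gene of these lists passed in any of the comparisons named in the next paragraphs. Of 14 tested partners of the specific and gelatinase granules, 13 were above 0 in knockout against wild-type livers at 2 months, with a median of 1.48 against -0.04 over all features. Against hemizygous livers 13 of 14 were above 0 (median 1.22). Lcn2, the siderophore-binding lipocalin that hepatocytes also make, differed by 3.43 from wild-type livers (SE 1.23, adjusted p = 0.442), and by 0.73 with slide as a fixed block. Its knockout levels of -1.20, 3.73 and 1.35 in animals 137, 64 and 69 overlapped the hemizygous range of -1.55 to -0.25. Pglyrp1, a peptidoglycan-binding protein, differed by 2.64 from wild-type livers (SE 0.75, adjusted p = 0.314, at least 2.06-fold). Chil3, a chitinase-like protein of neutrophils and macrophages, differed by 2.82 from hemizygous livers (SE 0.94, adjusted p = 0.411). The summed linear signal of the 14 genes, in units of the array's 75th percentile, was 46.3 to 63.9 in knockout, 19.7 to 22.8 in hemizygous and 16.5 to 16.6 in wild-type livers. Lyz2, a lysozyme of macrophages as well as neutrophils, held 62.7% to 87.9% of that sum in knockout, 82.5% to 84.2% in hemizygous and 82.4% to 85.2% in wild-type livers. The other 13 genes summed to 5.61 to 23.8 in knockout, 3.11 to 3.98 in hemizygous and 2.44 to 2.92 in wild-type livers, with no overlap. Among these, Lcn2 and Slpi reached levels of 3.73 and 3.45 in young knockout livers, whereas Pglyrp1, Mmp9, Fcnb and Cd177 reached at most -3.65. A few bright genes thus weigh most in this linear sum.

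Of the 4 tested azurophil genes besides Mpo and Elane, 1 was above 0 against wild-type and 2 against hemizygous livers, with medians of -0.94 and -0.11. These medians rest in part on background signals, since Ms4a3 was well above background in no young liver and Prg3 in 1 hemizygous and 1 wild-type liver only. Prtn3, the proteinase 3 of these granules, was well above background throughout and had -2.79, -2.06 and -3.01 in knockout, -3.53, -3.41 and -2.92 in hemizygous and -3.06 and -2.78 in wild-type livers. It differed by 0.30 from wild-type livers (SE 0.75, adjusted p = 0.945) and by 0.67 from hemizygous livers (SE 0.67, adjusted p = 0.863). Ctsg, the cathepsin G of these granules, had -3.75, -2.64 and -3.29 in knockout, -3.80, -1.20 and -0.32 in hemizygous and -0.74 and -0.03 in wild-type livers. It differed by -2.84 from wild-type livers (SE 0.96, adjusted p = 0.399) and by -1.45 from hemizygous livers (adjusted p = 0.71). Of 16 tested genes of mature neutrophils, 9 were above 0 against wild-type livers (median 0.39) and 11 against hemizygous livers (median 0.80). Wfdc21 alone held between 88.3% and 94.9% of the summed signal of this list in each young liver. Without Wfdc21, the other 18 measured genes of the list, not all of them tested, summed to 2.70 to 3.20 in knockout livers. They summed to 2.235 to 3.15 in hemizygous and 2.42 to 2.45 in wild-type livers, with knockout and hemizygous values overlapping. Csf3r, the receptor for the growth factor of neutrophils, differed by -0.55 from wild-type livers (adjusted p = 0.806) and -0.72 from hemizygous livers (adjusted p = 0.712). Ly6g, the usual surface marker of mouse neutrophils, is not among the named probes used here.

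Retnlg, a secreted resistin-like protein of neutrophils, had -4.84, -1.82 and -3.99 in knockout livers. It had -7.94, -7.77 and -7.03 in hemizygous and -6.77 and -6.42 in wild-type livers, none of them well above background. It differed by 4.03 from hemizygous livers (SE 0.81, adjusted p = 0.126, at least 5.44-fold) and by 3.05 from wild-type livers (SE 0.90, adjusted p = 0.329, at least 3.89-fold). It also had the level most like that of S100a9 over the 25 arrays. Among 13636 genes well above background on at least 13 arrays, its Pearson r with S100a9 was 0.95, followed by S100a8 with 0.94, Commd7 with 0.87 and Trim2, Heyl and Tubb2a with 0.85 each. With group means removed, Retnlg was again first with 0.86, and 0.81 without animal 641, whereas S100a8 had 0.68. These values come from arrays that share slides and animals and carry no test.

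Markers of macrophages and monocytes, which can carry calprotectin transcripts as well, were higher on average in the same livers. None of the 10 passed by limma, where 0.0222% of features passed against wild-type and 0.0518% against hemizygous livers. Against wild-type livers 5 were higher at an unadjusted p under 0.05, where 4.30% of all features were. All 10 measured markers were above 0 in knockout against wild-type and against hemizygous livers at 2 months, with medians of 1.35 and 0.90. Mpeg1, perforin-2 of macrophages, differed by 1.83 from hemizygous (SE 0.48, adjusted p = 0.271) and by 1.73 from wild-type livers (SE 0.54, adjusted p = 0.362). Their summed signal was 74.2 to 99.8 in knockout, 33.2 to 45.7 in hemizygous and 39.9 to 40.6 in wild-type livers. Knockout values did not overlap the others, and 10, 10 and 8 to 10 of them were well above background per array. At 12 months the sums were 79.9 to 178 in knockout non-tumor tissue and 19.8 to 79.8 in wild-type liver, and all 10 were above 0 with a median of 1.30. Their part in the calprotectin levels was not tested.

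Genes that attract neutrophils were mixed. Of 15 tested, 8 were above 0 against wild-type and 12 against hemizygous livers at 2 months. The cytokine genes Il1a and Il1b differed by 2.83 (adjusted p = 0.196) and 2.52 (adjusted p = 0.257) from wild-type livers, and Il1b by 1.49 (adjusted p = 0.48) from hemizygous livers. Receptors of calprotectin were above 0 in 9 of 9 against wild-type (median 0.996) and 8 of 9 against hemizygous livers (median 0.55). The medians over all features were -0.04 and 0.04. Tlr4 was at 0.92 (adjusted p = 0.692) and 0.55 (adjusted p = 0.856). Ager, the receptor RAGE, was at 1.80 (adjusted p = 0.602) and 0.20 (adjusted p = 0.98). Of 12 other S100 genes, 10 were above 0 against wild-type and 8 against hemizygous livers. Among them S100a4, a regulator of cell motility, differed by 1.43 and 1.90 (adjusted p = 0.535 and 0.356) and S100a6, calcyclin, by 1.12 and 0.77 (adjusted p = 0.43 and 0.597). Among acute phase genes of hepatocytes, 9 of 10 were above 0 against wild-type and 10 of 10 against hemizygous livers. Saa2, whose probe may also read its near copy Saa1, differed by 3.20 (adjusted p = 0.253) and 3.78 (adjusted p = 0.112). At an unadjusted limma p under 0.05 against wild-type livers, 1 of the 9 receptors was higher, where 4.30% of all features were. The numbers were 3 of 15 attractants, 3 of 12 other S100 genes and 3 of 10 acute phase genes.

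At 12 months 13 of 14 specific and gelatinase granule genes were above 0 in knockout non-tumor tissue against wild-type liver, with a median of 1.11 against -0.12 over all features. Of the mature neutrophil genes 12 of 16 were above 0 (median 0.83), of the azurophil genes 3 of 4 (median 0.14) and of the attractants 9 of 15. Cybb, the oxidase subunit of neutrophils and macrophages, differed by 2.40 (SE 0.61, adjusted p = 0.106) and Lyz2, lysozyme of both cell types, by 1.88 (SE 0.50, adjusted p = 0.115). Cxcl5, a ligand of Cxcr2, differed by 2.36 (adjusted p = 0.175). Between tumor and non-tumor tissue 8 of 14 specific and gelatinase granule genes and 10 of 17 mature neutrophil genes were above 0, with medians of 0.03 and 0.0001. Retnlg differed by -0.45 in tumors (SE 0.18) and the macrophage receptor Marco by -0.80 (SE 0.33), both with an adjusted p of 0.999.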

How the data were processed

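The deposited array files hold intensity values per spot, written by Agilent Feature Extraction 10.5.1.1 from single-colour (Cy3) arrays, per the file headers; the processed signal is background-subtracted and was not scaled from array to array. A table of log2 values that the authors deposited served as an alternative. The submitters' processing notes name limma without a role. From the 43379 spots, 41174 probes were formed by averaging, of which 24375 (59.2%) were named through RefSeq (GRCm38.p6). A level is log2 of the processed signal after subtraction of the 75th percentile on the same array.

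Differences were tested with limma 3.58.1 in R 4.3.3 (lmFit, eBayes, two-sided, Benjamini-Hochberg over all features, threshold 0.05). Features were kept if well above background on as many arrays as the smallest group holds. One model took 18 arrays without tumors, another 14 arrays of 7 animals with each animal as a fixed block, and the last 18 arrays without non-tumor tissue of tumor-bearing mice. Animal numbers in the labels mark separate mice and pair tumor with non-tumor tissue of 1 mouse. The number of arrays limits the precision.

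The 9 genes, the lists of known genes and the tests were chosen with earlier results of these data known. All 9 are named. From a list, genes were named among the 4 of lowest p in the main comparisons, and Csf3r was added for its role after values were seen. Lists of erythroid, platelet, mast cell, lymphocyte, hepatocyte and granulopoiesis genes were counted as well, and none of their genes passed in young livers, at 12 months or in tumors. Alternatives were other background corrections, normalisations, filters, probe summaries, blocks and the omission of each array. The planned normexp correction used median spot signals, since the files hold no mean signals. No correction for the genomic position or sequence of probes was made.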

Additional observations from a re-analysis of the deposited data

Results flagged for a closer look

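The search for a sample apart covered, for each gene, the 12-month knockout tumors, the 12-month knockout non-tumor tissues and the pair differences. Groups of 3 or fewer arrays, among them the 12-month wild type with animal 641, were not searched. Of the 27 sets of values examined for a sample apart, 1 had such a sample, where chance gives about 1 in 20. It was the tumor minus non-tumor difference of Ltf in animal 702, which was 0.96 while the other 6 animals were below 0. The dimmer Ltf probe had -5.81 in the tumor and -5.99 in the non-tumor tissue of that animal, neither well above background.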

How the results depend on the processing

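Each of 89 differences of single genes was recomputed under the alternatives, 2484 values in all, of which 2373 kept their direction and their side of the threshold, 15 no longer passed, 46 newly passed and 50 turned their sign. The number of the 8 genes that passed was 2 in knockout against hemizygous livers at 2 months, and became 1 with normexp, 0 with slide as a fixed block, 0 with only the compared groups in the model, and 0 to 2 without single arrays. Against wild-type livers it was 0, and became 2 with quantile normalization, the stricter filter, trend and robust options or scan day as a block, 1 with the authors' log2 values or a floor on dim signals, and 0 to 2 without single arrays. For wild-type livers at 12 against 2 months it was 0, and became 2 with quantile normalization, 1 with trend and robust options, 3 with scan day and 0 to 2 without single arrays. With scan day it became 1 in knockout non-tumor tissue against wild-type liver (Cxcr2, -2.64, adjusted p = 0.0267) and 2 for the difference of genotypes between ages. For 12-month tumors against wild-type liver it became 1 with normexp or the authors' values and 0 to 2 without single arrays. Features passing in knockout non-tumor tissue against wild-type liver numbered 5, but 557 with normexp, 229 with the authors' values, 323 with trend and robust options and 3449 with scan day. The cause of these shifts was not tested, except that the omission of 641 and scan day change which old wild-type livers are compared. In the model without tumors, scan day leaves 641 alone. Counts from that model with scan day that involve old wild-type livers rest on that single array. In the model of tumors and wild-type livers 552 and 1110 still count, since tumor 1347 was scanned on their day. With scan day, the 8 genes passed no more often than all features in knockout non-tumor tissue against wild-type liver. The share of all features is not set beside the other counts of the 8 genes here.

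Signs turned in small differences. Ltf in knockout against wild-type livers at 2 months was -0.13 with normexp, -0.15 with the authors' values and -0.14 with the mean of its probes. Ngp against hemizygous livers was -0.0187 with the authors' values, -0.87 with slide as a fixed and -0.26 as a random block, and -0.15 with the floor. S100a8 in hemizygous against wild-type livers was 0.15 with the authors' values and 0.35 with slide fixed. With scan day, knockout non-tumor tissue against wild-type liver gave -0.37 for S100a9, -0.80 for Ltf, -1.94 for Camp and -1.43 for Mmp8. In tumor against non-tumor tissue Cxcr2 was 0.0187 with normexp, 0.0549 with quantile normalization, 0.0431 with the authors' values, 0.47 with the mean of its probes and 0.22 with the floor, and Mmp8 was 0.0253 with the floor.

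Leaving out single arrays gave ranges that span 0. In knockout non-tumor tissue against wild-type liver at 12 months they were -0.44 to 1.77 for Camp, -1.14 to 0.58 for Cxcr2, -1.16 to 0.37 for Mpo and -1.62 to 0.69 for Ngp. In tumor against non-tumor tissue they were -0.48 to 0.25 for Camp, -0.21 to 0.25 for Cxcr2, -0.46 to 0.11 for Mmp8, -0.47 to 0.68 for Ngp, -0.0788 to 0.35 for S100a8 and -0.27 to 0.0237 for S100a9, and -0.50 to 0.083 for S100a9 between ages. In knockout livers at 2 months they were -0.24 to 1.94 for Ltf and -0.88 to 1.09 for Ngp against hemizygous and -1.82 to 2.38 for Ltf against wild-type livers. In hemizygous against wild-type livers they were -0.59 to 0.0489 for S100a8 and -0.76 to 0.20 for S100a9. In knockout non-tumor tissue they were -0.17 to 0.49 for S100a8 at 12 against 8 months, and for S100a9 -0.0011 to 0.92 at 12 and -0.77 to 0.14 at 8 against 2 months.

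Without the replicate block of animals, tumor against non-tumor tissue gave 0.12 for S100a8 and -0.17 for S100a9 (adjusted p = 1), and the animal as a random block changed no call. Slide as a random block, chosen after seeing the data, kept both calprotectin calls against hemizygous livers. Slide as a fixed block could not be fitted between the older knockout groups and the others. Signals near background bound what can be said of Elane, Camp, Ngp, Mmp8 and Cxcr2 in young controls, and of Elane, Camp, Ngp and Mmp8 in young knockout livers.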

Other observations

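Lists of other cell types were counted in the same young livers. Of 6 platelet and megakaryocyte genes 5 were above 0 in knockout against wild-type livers (median 0.74), of 7 erythroid genes 3 (median -0.14), of 8 T and B cell genes 6 (median 0.24), of 8 eosinophil, basophil and mast cell genes 5 (median 0.39), of 10 granulopoiesis factors 6 (median 0.29) and of 6 hepatocyte genes none (median -0.44). Cebpb, a transcription factor of hepatocytes and myeloid cells, differed by -1.54 from hemizygous livers (SE 0.39, adjusted p = 0.24) and by -1.43 from wild-type livers (SE 0.43, adjusted p = 0.352). Spi1, which encodes PU.1, differed by 2.23 from wild-type livers (adjusted p = 0.381) and by 0.55 from hemizygous livers (adjusted p = 0.898).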
